A study of Mus musculus with 60 samples.

Results

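The 54 protein-coding keratin genes of the mouse were followed through all 60 libraries of the study. A keratin was taken as any gene identifier of both count tables that carries a protein-coding symbol of the form Krt followed by a number, and 54 of 56980 identifiers met this rule. By protein type, 28 were type I and 26 were type II keratins. By where each protein is known to be made, 5 were keratins of simple epithelia (Krt7, Krt8, Krt18, Krt19 and Krt20), 3 were basal keratins of stratified epithelia (Krt5, Krt14 and Krt15), 4 were stress keratins (Krt6a, Krt6b, Krt16 and Krt17), 12 were suprabasal keratins, 24 were hair and nail keratins and 6 fell in none of these classes.

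Keratins are the intermediate filament proteins of epithelial cells. A filament is built from heterodimers of an acidic type I and a basic type II keratin, so each tissue makes its keratins in pairs: Krt8 with Krt18 in simple epithelia, Krt5 with Krt14 in the basal layer of the epidermis, Krt1 with Krt10 in the layers above it, and Krt6 with Krt16 in wounded or hyperproliferative epidermis. Fibroblasts carry filaments of vimentin instead, and keratins are classical markers of the mesenchymal to epithelial transition that accompanies early reprogramming.

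The first table held 36 libraries of tail tip fibroblasts in 12 groups of 3. The D/KO cells carried the doxycycline-inducible 4Fj cassette of the reprogramming factors OCT4, SOX2, KLF4 and MYC (OSKM). They also carried the rtTA activator and the Ercc1 delta and null alleles, and their source was given as male and 8 weeks old. The WT cells carried the 4FJ cassette on 1 allele with an OCT4-GFP reporter, and their source was given as female and 22 weeks old. Both were sampled at day 0 without doxycycline and at day 2 and day 4 of doxycycline at 2 µg/ml, each without and with VC, which is ascorbic acid at 50 µg/ml with the GSK3 inhibitor CHIR99021 at 3 µM. The second table held 24 libraries in 8 groups of 3. Untreated tail tip and skin fibroblasts were Ercc1+/+ WT, from a female source of 14 weeks. Tail tip fibroblasts with Ercc1 d/-, from a female source of 4 weeks, were untreated controls or were treated for 3 days. The treatments were Repsox or Vactosertib at 0.1 µM and DMH-1 or A83-01 at 1 µM. The last group was 4FJ OCT4-GFP cells, from a female source of 22 weeks, under the label TGFB. The Ercc1 strains, with or without 4Fj and rtTA, were on a C57BL6J and FVB hybrid background. None is stated for the 4FJ OCT4-GFP cells. Genotype went together with sex, age, cassette and reporter in the first table, where strain background may differ too. In the second table genotype went with age. None of these can be told apart. Each group held 3 libraries that the study describes only as triplicates, and the number of animals is not given in the sources used here. The tests thus measure the spread between such libraries, which may be technical.

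Type I and type II keratins lie in separate clusters. On GRCm39, 27 of the 28 type I genes lay on chromosome 11 and the 26 type II genes lay on chromosome 15 with Krt18, the only type I gene there. Krt14 (ENSMUSG00000045545) spans chr11:100093988-100098374, Krt16 (ENSMUSG00000053797) chr11:100136917-100139728 and Krt19 (ENSMUSG00000020911) chr11:100031636-100039491, all on the minus strand. Krt8 (ENSMUSG00000049382) spans chr15:101905133-101912917 on the minus strand and its partner Krt18 (ENSMUSG00000023043) chr15:101936615-101940462 on the plus strand. Krt80 (ENSMUSG00000037185, chr15:101245325-101268043) and Krt90 (ENSMUSG00000048699, chr15:101460791-101471385), further type II genes, lie on the minus strand.

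The promoters of 2 partner pairs are printed because the partners were found at very different levels in the same cells. Each is the GRCm39 sequence from 250 bases before to 50 bases after the annotated gene start, 5′ to 3′ on the gene's strand (chr11:100098325-100098624 for Krt14, chr15:101621284-101621583 for Krt5 and chr15:101912868-101913167 for Krt8, all minus, and chr15:101936365-101936664, plus, for Krt18). Capitals mark TATAAA, the core of the TATA box, and CACCC or its reverse complement GGGTG, the core of the sites bound by KLF factors.
Krt14: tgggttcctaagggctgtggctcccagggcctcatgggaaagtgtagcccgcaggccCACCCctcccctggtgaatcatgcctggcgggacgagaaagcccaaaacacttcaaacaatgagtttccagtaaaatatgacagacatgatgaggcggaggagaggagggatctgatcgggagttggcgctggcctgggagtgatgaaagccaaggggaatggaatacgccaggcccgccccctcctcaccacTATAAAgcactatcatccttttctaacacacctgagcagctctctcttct
Krt5: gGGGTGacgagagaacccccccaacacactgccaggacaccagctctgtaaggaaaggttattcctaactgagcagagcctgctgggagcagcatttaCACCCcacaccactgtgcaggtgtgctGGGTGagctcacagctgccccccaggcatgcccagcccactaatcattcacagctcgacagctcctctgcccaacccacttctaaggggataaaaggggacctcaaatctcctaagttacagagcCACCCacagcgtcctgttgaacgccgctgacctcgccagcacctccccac
Krt8: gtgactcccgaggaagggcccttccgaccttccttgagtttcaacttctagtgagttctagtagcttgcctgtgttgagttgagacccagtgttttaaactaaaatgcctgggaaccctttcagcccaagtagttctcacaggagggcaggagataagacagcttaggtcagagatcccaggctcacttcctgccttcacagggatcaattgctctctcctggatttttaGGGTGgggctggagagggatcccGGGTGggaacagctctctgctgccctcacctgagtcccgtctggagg
Krt18: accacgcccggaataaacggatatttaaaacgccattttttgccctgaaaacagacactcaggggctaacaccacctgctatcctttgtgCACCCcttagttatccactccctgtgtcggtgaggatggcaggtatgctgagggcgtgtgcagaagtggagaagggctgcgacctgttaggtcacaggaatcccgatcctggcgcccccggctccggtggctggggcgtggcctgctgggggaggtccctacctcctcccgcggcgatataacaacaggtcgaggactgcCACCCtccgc
Of these windows only that of Krt14 held TATAAA, which began at base 1, the annotated gene start itself. Each window held CACCC on at least 1 strand. The letters TATAAA stood in 25 of the 54 keratin windows (46.3%) against 12.7% of 21618 windows of protein-coding genes, searched on both strands. CACCC stood in 40 (74.1%) against 58.5%, and the GC box GGGCGG in 6 (11.1%) against 43.4%. The AP-1 motif TGANTCA stood in 7.41% against 6.95%, the AP-2 motif GCCNNNGGC in 22.2% against 18.2%, the octamer ATGCAAAT in 1.85% against 1.60% and the TCF/LEF motif CTTTGAT in 5.56% against 3.40%. A match describes the letters and does not show that a factor binds there.

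Library totals ranged from 16538374 to 18484951 counts in the first table and from 17102639 to 30599138 in the second. Levels are given as normalised CPM, which is counts scaled to library totals of equal size after TMM scaling. Pou5f1, which the OSKM cassette carries, stood at 0.471 to 1.10 in D/KO day 0 and at 89.6 to 150 in D/KO day 4 plus VC, and at 88.3 to 108 in WT day 4 plus VC. Ercc1 ranged from 8.03 to 18.6 in D/KO and from 16.8 to 29.1 in WT libraries of the first table, and the ranges overlapped. In the second table Ercc1 of untreated D/KO cells, at 20.3 to 20.9, lay inside the range of WT tail tip cells, 13.3 to 21.7. Whether the counted exons lie outside the mutated part was not tested, so the transcript does not check the label. The 10 fibroblast markers were present in every group, with summed means from 30268 to 223135 normalised CPM.

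Most keratin genes were silent or nearly so. In all 60 libraries 10 members had no count (Krt4, Krt9, Krt24, Krt26, Krt27, Krt32, Krt35, Krt40, Krt72 and Krt76), 6 of them hair and 4 suprabasal keratins, and 24 more had between 1 and 100 counts in total. A group mean of 1 normalised CPM was reached by 18 members and 10 normalised CPM by 10. All 5 simple and all 4 stress keratins were among the 18, with 1 of 3 basal, 3 of 12 suprabasal, 2 of 24 hair and 3 of the 6 other members. Enough counts for the test were left for 19 members in the first table and 10 in the second. A limit of 3 counts in 1 library is used as the floor for a member at 0 counts, and floors, folds against them and count ratios with exact binomial 95% intervals cover counting error only.

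The summed keratin level of D/KO cells grew with doxycycline, and most with VC. It was 24.1, 17.5 and 22.8 normalised CPM in the 3 day 0 libraries and 952, 1099 and 1063 in the 3 day 4 plus VC libraries. The means were 21.5 ± 3.48 at day 0, 145 ± 10.8 at day 2 and 245 ± 26.0 at day 4, and 8.56 ± 1.01, 196 ± 21.2 and 1038 ± 76.6 at the same days with VC (SD, n = 3). In WT cells the sum was 52.9 ± 11.9 at day 2 and 29.0 ± 0.11 at day 4 plus VC, and the libraries of the 2 genotypes did not overlap at day 2 or day 4 in either arm.

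The leading keratin changed as the sum grew. Krt19 held 32.9% of the D/KO sum at day 0, Krt16 held 46.9% at day 2 and 29.0% at day 4, and with VC Krt14 held 56.9% at day 2 and 35.3% at day 4. Krt10 led in day 0 plus VC cells of both genotypes, with 46.2% in D/KO and 51.2% in WT. In WT cells Krt19 led at day 2 with 43.4%, the hair keratin Krt84 at day 4 with 37.1%, and Krt14 at day 4 plus VC with 22.8%. By class, D/KO day 4 cells held 76.2 normalised CPM of stress and 43.5 of basal keratins, whereas day 4 plus VC cells held 76.8 of stress, 367 of basal and 221 of simple keratins. The members in no class held 77.3 at day 4 and 329 at day 4 plus VC, nearly all of it from Krt80 and Krt90.

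**Figure D1:**
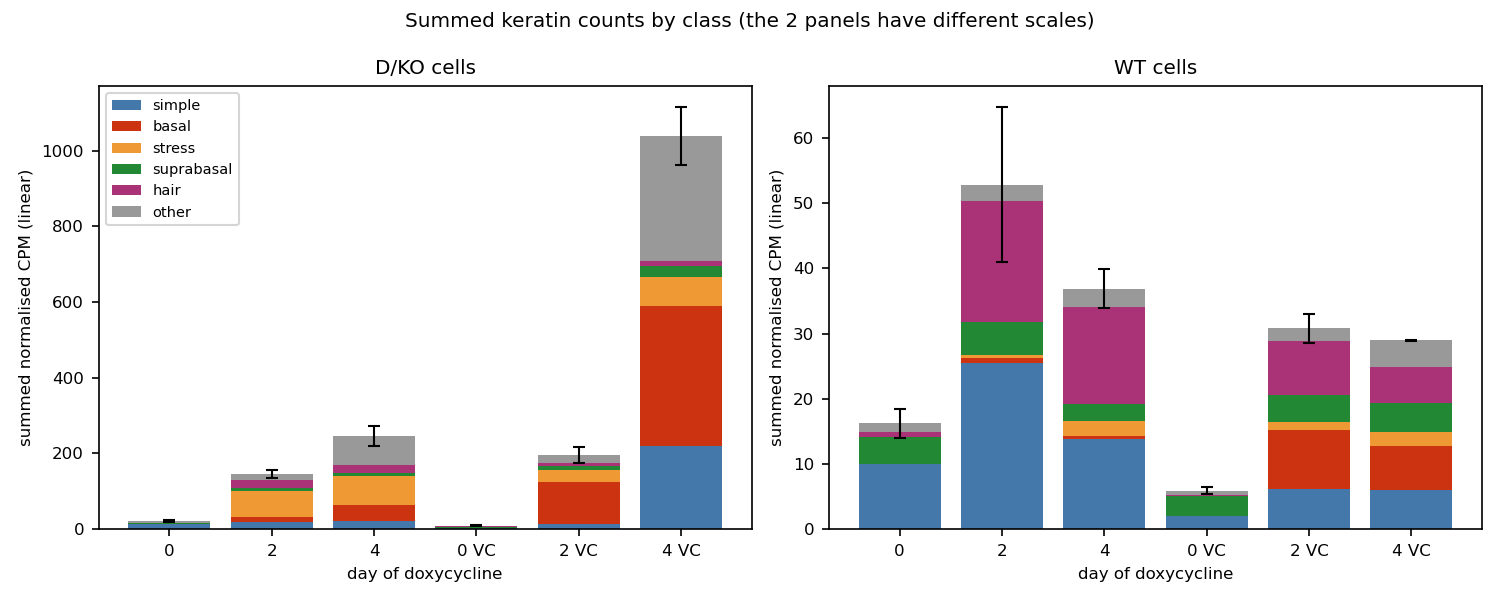
Stacked bars of the mean summed keratin level by class in normalised CPM (y axis, linear, with a different scale in each of the 2 panels) for the 6 D/KO and the 6 WT groups (x axis), with the SD of the total over 3 libraries as error bar. The D/KO total reaches 1038 ± 76.6 at day 4 plus VC and is mostly basal, other and simple keratins there, while the tallest WT bar is 52.9 ± 11.9 at day 2.

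Members were tested against day 0 of the same genotype and arm with edgeR's quasi-likelihood test and called at a Benjamini-Hochberg adjusted p under 0.05. In D/KO cells 12 members were higher and 1 lower at day 2, 14 higher and 2 lower at day 4, 13 higher and 3 lower at day 2 plus VC, and 15 higher and 2 lower at day 4 plus VC. Of all 54 members 22.2%, 25.9%, 24.1% and 27.8% were thus higher. Among the 15832 genes tested 14.3%, 18.3%, 23.8% and 27.9% were higher and 13.2%, 18.7%, 23.6% and 26.2% lower at the same times. In WT cells 8, 6, 9 and 10 members were higher (14.8%, 11.1%, 16.7% and 18.5% of 54) and 0, 1, 0 and 0 lower. The shares over all genes were 6.26%, 11.7%, 13.8% and 22.7% higher and 4.30%, 12.8%, 13.7% and 22.0% lower. The count of 8 at WT day 2 was 5 without WT day 2 replicate 2 and 3 when only the groups compared were fitted, and that of 14 at D/KO day 4 was then 9. Some higher calls depended on single libraries. With 4 of 6 libraries left out in turn, Krt1 and Krt5 at D/KO day 2 and Krt5 at D/KO day 4 lost their calls. Krt14 at WT day 4 and Krt13 at WT day 2 plus VC did so too. Several lower calls depended on single libraries as well. Krt18 at D/KO day 2 lost its call with each of 6 libraries left out, Krt7 at day 4 and at day 2 plus VC with 4 and 5 of 6, Krt83 at day 4 plus VC with 3 of 6 and Krt10 at WT day 4 with 5 of 6. Of the 3 lower at day 2 plus VC, 1 was left without D/KO day 2 plus VC replicate 3. Krt83 at D/KO day 4 plus VC turned to 3.09 on the log2 scale against day 0 without VC. With that baseline Krt19, higher at WT day 2 plus VC and at WT day 4 plus VC, turned to lower values. A percentage of 54 includes the 35 untested members, whereas a percentage of all genes covers tested genes only, and a member that entered the test through the group where it is high had to differ.

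The median log2 fold change of the 19 tested members in D/KO cells was 4.46 at day 2 and 5.45 at day 4 without VC, and 5.42 and 8.15 with it. In the same order it was 1.15, 2.83, 2.97 and 5.41 with members at 0 counts in a group set to their floor, which applied to 8, 8, 10 and 9 of them. In WT cells the medians were 2.58, 3.02, 3.59 and 3.13, and 0.14, 0.49, 0.80 and 1.16 with floors. The median over all genes tested was within 0.03 of 0 in each of these comparisons, where TMM scaling tends to hold it. Members kept in the test only through a group where they are high give large positive values by that selection. The untested members are not in these medians.

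Krt14, the type I keratin of basal epidermis, reached the highest level of any keratin. D/KO libraries held 0.129, 0.117 and 0 normalised CPM at day 0, which is 4 counts in all, 10.7, 10.1 and 18.4 at day 2, and 37.9, 54.0 and 37.7 at day 4. With VC they held no count at day 0, 98.9, 117 and 118 at day 2, and 286, 393 and 421 at day 4. Each later group lay above the one before it in its arm with no overlap. Against day 0 the log2 fold change was 7.22 ± 0.49 at day 2 (adjusted p = 2.16e-13, edgeR) and 8.94 ± 0.44 at day 4 (SE, adjusted p = 2.98e-17), and the level at day 2 plus VC was at least 530-fold above the floor.

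WT cells carried far less Krt14. Their libraries held 0.153, 0.371 and 0.221 normalised CPM at day 4, and 6.85, 6.25 and 6.67 at day 4 plus VC against 1 count in all at day 0 plus VC, a ratio of 322 with a counting interval of 57.4 to 12750. D/KO exceeded WT by 7.41 ± 0.36 on the log2 scale at day 4 and by 5.80 ± 0.25 at day 4 plus VC (adjusted p = 1.31e-18, edgeR), with no overlap. The WT calls without VC rested on few counts: the call at day 2 was lost without WT day 2 replicate 2 (adjusted p = 0.115) and the call at day 4 with 4 of 6 libraries left out in turn (adjusted p up to 0.0911).

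The type II partner of Krt14 was nearly absent. Krt5 held 0.264, 0.668 and 0.579 normalised CPM in the 3 D/KO day 4 plus VC libraries (5, 12 and 11 counts), at least 2.40-fold above the floor, and its mean of 0.504 was its highest in any group. Per kilobase of exon, Krt14 stood at 209 and Krt5 at 0.229 normalised CPM in that group. Krt15, the third basal keratin, reached no group mean of 1 normalised CPM.

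**Figure D2:**
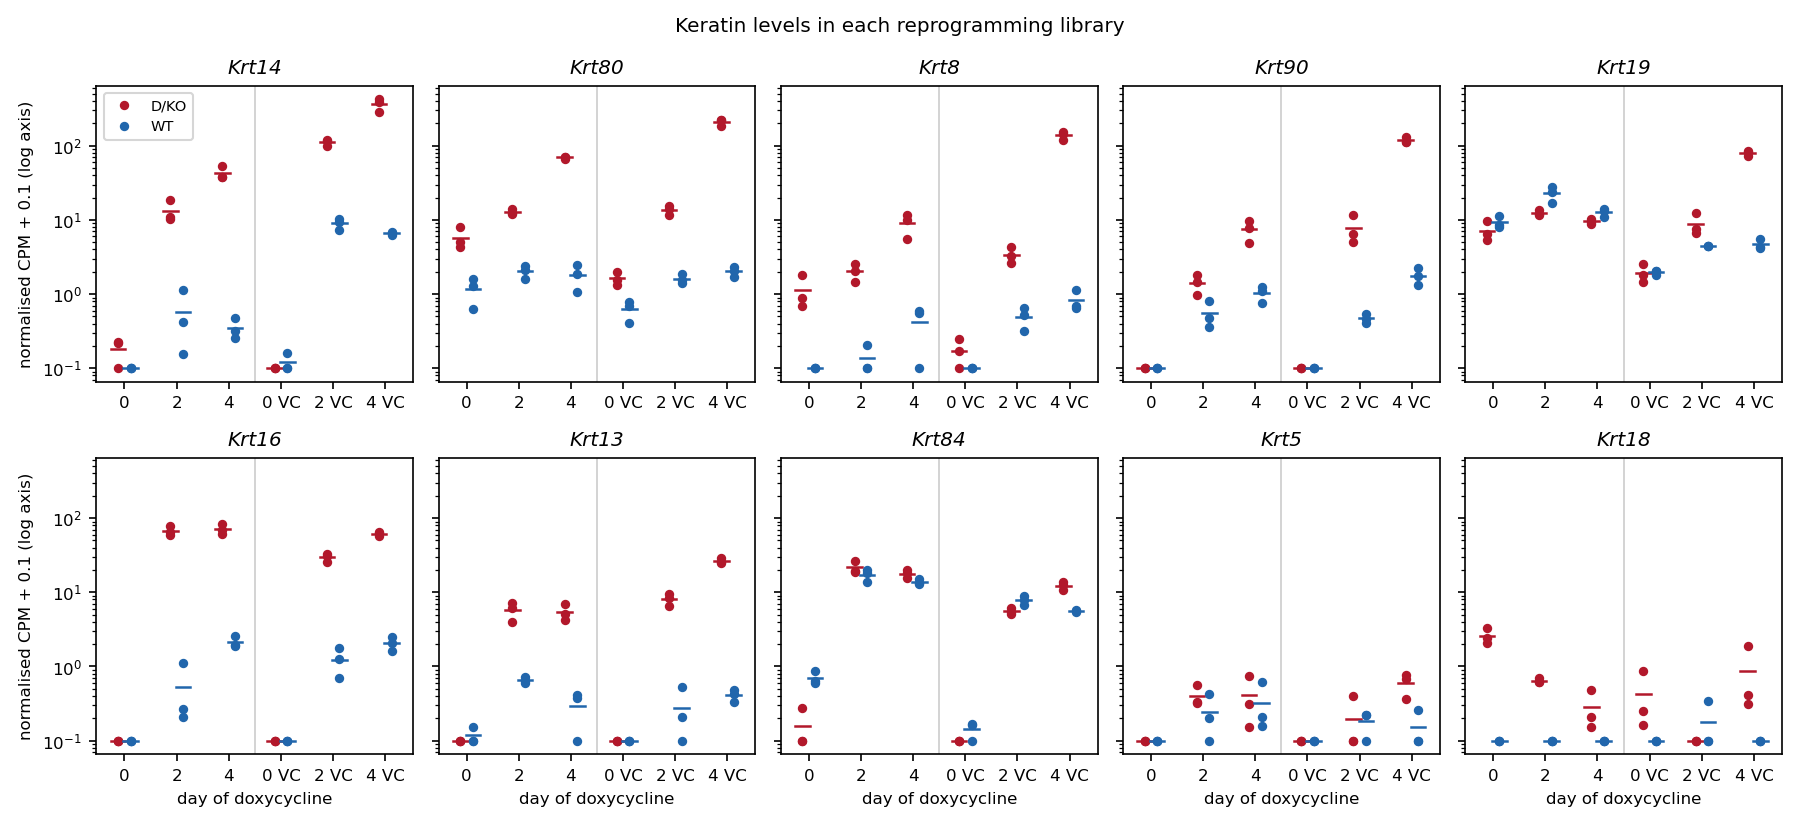
Normalised CPM plus 0.1 on a log axis (y) of 10 keratins in each library of the first table by day and VC (x), D/KO in red and WT in blue, with lines at the means of 3 libraries. With VC, Krt14 in D/KO climbs from no count at day 0 to 286, 393 and 421 at day 4. Krt84 reaches similar levels in both genotypes at day 2 and day 4 without VC.

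The simple keratins did not move together. Krt8, the type II keratin of simple epithelia, stood at 0.773, 0.586 and 1.71 normalised CPM in D/KO day 0, at 9.82, 11.4 and 5.45 at day 4, and at 144, 153 and 119 at day 4 plus VC. The day 4 plus VC libraries all lay far above every other library of the table. It rose by 3.11 ± 0.35 on the log2 scale at day 4 (adjusted p = 1.13e-08, edgeR), and at day 4 plus VC the ratio to the 3 counts of day 0 plus VC was 1886 (counting interval 645 to 9146). WT cells held no Krt8 count at day 0 in either arm and 1.05, 0.548 and 0.591 normalised CPM at day 4 plus VC, so that D/KO exceeded WT there by 7.57 ± 0.36 (adjusted p = 1.67e-17, edgeR).

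Krt18, the type I partner with which Krt8 forms filaments, went the other way. D/KO day 0 libraries held 2.00, 2.29 and 3.24 normalised CPM, and those of day 4 held 0.380, 0.0522 and 0.108, with no overlap. The fall was 3.76 ± 0.90 on the log2 scale at day 4 (adjusted p = 0.00176, edgeR), and it passed with each of the 6 libraries left out in turn. At day 2 the log2 fold change was -2.18 ± 0.80 (adjusted p = 0.0442), and that call was lost with any 1 of the 6 libraries left out (adjusted p 0.0645 to 0.128). Krt18 had no count in the 3 day 2 plus VC libraries, at least 1.90-fold lower than at day 0 plus VC, a call that was lost without D/KO day 0 plus VC replicate 3 (adjusted p = 0.144). At day 4 plus VC the libraries held 0.211, 1.78 and 0.316, which overlapped with 0.0647, 0.151 and 0.772 at day 0 plus VC (1.21 ± 0.90, adjusted p = 0.270).

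The mixture of Krt8 and Krt18 transcripts was mostly type I in D/KO cells at day 0 and mostly type II at day 4. Of their summed level per kilobase Krt18 made up 77.9%, 84.2% and 72.1% in the 3 D/KO day 0 libraries and 0.199%, 1.57% and 0.359% in the 3 day 4 plus VC libraries. The ranges lay apart, with a 2-sided exact permutation p = 0.1, the smallest that 3 against 3 libraries can give, but doxycycline and VC changed together in this comparison. At day 0 plus VC the share was 57.7% to 100%, on 3 counts of Krt8. At day 4 the share was 2.75% ± 2.20 (SD, n = 3; exact permutation p = 0.2 against day 4 plus VC). Of the 100-base words of the Krt8 transcript 14.6% also occur in the pseudogene Krt8-ps and 23.4% elsewhere in the genome, while none of the 1624 words of Krt18 do. How reads with several positions were counted is not given in the sources used here.

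Krt19, a type I keratin with no tail domain, was the most abundant keratin of both genotypes at day 0 without VC. D/KO libraries held 9.60, 6.33 and 5.24 normalised CPM at day 0, and 72.3, 83.4 and 84.1 at day 4 plus VC, while without VC the day 4 libraries stayed at 8.84, 10.3 and 9.38. WT libraries held 16.7, 28.1 and 23.97 at day 2 and 5.46, 4.28 and 4.09 at day 4 plus VC. The day 4 plus VC libraries of the 2 genotypes lay apart by 4.12 ± 0.22 on the log2 scale, D/KO higher, whereas at day 2 D/KO was lower by 0.90 ± 0.20. The change from day 0 plus VC to day 4 plus VC differed between the genotypes by 4.17 ± 0.38 (adjusted p = 1.23e-10, edgeR).

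Krt7, the usual type II partner of Krt19, was low throughout reprogramming. D/KO day 0 libraries held 2.64, 0.704 and 1.47 normalised CPM and day 4 libraries 0.109, 0.470 and 0.917, which overlapped. The log2 fold change of -1.67 ± 0.67 (adjusted p = 0.0494, edgeR) was lost with 4 of the 6 libraries left out in turn, with adjusted p up to 0.284. Its mean at D/KO day 4 plus VC was 0.234 ± 0.113, and its highest mean in any WT group of the first table was 0.448. Krt20, known from gut and bladder epithelium, rose at day 2 in both genotypes, by 2.84 ± 0.62 in D/KO (1.78, 2.20 and 2.56) and by 3.01 ± 0.61 in WT (2.05, 3.44 and 1.48).

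Before doxycycline and without VC, several simple keratins were higher in D/KO than in WT cells. Krt8 and Krt18 had no count in the 3 WT day 0 libraries, so the D/KO levels were at least 6.39-fold and at least 15.7-fold above the floor. Krt80 was higher in D/KO by 2.40 ± 0.27 and Krt7 by 1.82 ± 0.68 on the log2 scale, the latter call being lost with 4 of 6 libraries left out (adjusted p up to 0.189, edgeR). In all 4 members were higher and 3 lower in D/KO (7.41% and 5.56% of 54) beside 43.2% of all genes called in either direction, and these 7 calls were 4 without D/KO day 0 replicate 3. The lower members were Krt10 (-0.77 ± 0.31) and Krt222, whose calls were each lost with 4 of 6 libraries left out (adjusted p up to 0.163 and 0.360), and Krt84, at a ratio of 0.0982 (counting interval 0.0193 to 0.312). At day 0 plus VC only Krt80 and Krt18 were higher and none lower (3.70% and 0% of 54) beside 20.3% of all genes, and the Krt18 call was lost with 4 of 6 libraries left out (adjusted p up to 0.278, edgeR).

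Markers of endothelial cells, some of which make simple keratins, differed in the same direction. All 5 of 5 markers were higher in D/KO day 0, beside 43.2% of all genes called in either direction, with summed levels of 585 to 709 normalised CPM against 14.5 to 17.3 in WT day 0, and none was at 0 counts in either group. In D/KO cells the summed level was 383 to 514 at day 4 plus VC, and 2 of 5 were higher and 2 lower there, beside 27.9% and 26.2% of all genes. The 5 immune markers summed to 4.38 to 8.13 in D/KO day 0 and 15.5 to 35.2 in WT day 0. The part of these cells in the keratin levels was not tested, and in such bulk libraries fewer cells of a type and less RNA per cell cannot be told apart.

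Krt16, the type I keratin of wounded and hyperproliferative epidermis, was already near its highest level at day 2. It had no count at day 0 in any group of the first table. D/KO libraries held 64.7, 78.8 and 59.9 normalised CPM at day 2 and 69.9, 82.99 and 60.8 at day 4, at least 373-fold and at least 391-fold above the floor. With VC they held 25.7, 33.0 and 30.4 at day 2 and 56.5, 64.1 and 63.7 at day 4. WT libraries held at most 2.45 at any time, and D/KO exceeded WT by 5.12 ± 0.27 on the log2 scale at day 4 and by 4.95 ± 0.27 at day 4 plus VC (adjusted p = 5.68e-15, edgeR).

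The type II partners of Krt16 were lower. At D/KO day 2 plus VC Krt6a held 0.289, 0.769 and 0.448 normalised CPM and Krt6b 0.579, 0.947 and 0.168, at least 2.39-fold and at least 2.69-fold above the floor. Krt6a held 2.48, 3.01 and 4.42 normalised CPM and Krt6b 2.22, 2.78 and 1.05 in D/KO day 4 plus VC, at least 15.7-fold and at least 9.61-fold above the floor. Both genes share 30.6% of their 100-base words with other transcripts, among them each other and Gm5478, so their split is uncertain. Krt16 shares 23.2% of its words with Gm11597 and Krt14, and Krt14 shares 2.46% with Krt16. Krt17, the type I stress keratin of hair follicles and healing wounds, varied widely between libraries, with 5.05, 5.43 and 0.647 at D/KO day 4 and 9.46, 14.8 and 5.74 at day 4 plus VC. These day 4 plus VC libraries gave a ratio of 398 (counting interval 71.1 to 15741) to the 1 count at day 0 plus VC.

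Among the suprabasal keratins, Krt13 of internal stratified epithelia led. D/KO libraries held none at day 0, 3.91, 6.09 and 7.14 normalised CPM at day 2, 4.99, 6.89 and 4.10 at day 4, and 25.8, 29.1 and 24.7 at day 4 plus VC, at least 126-fold above the floor. No WT library exceeded 0.616. Krt4, the type II keratin that accompanies Krt13, had no count in any library.

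Krt1 and Krt10, the pair of the differentiating epidermis, behaved differently from each other. Krt1 held 3.01, 1.89 and 3.47 normalised CPM at D/KO day 4 plus VC, at least 13.3-fold above the floor. Krt10 was present in every group, and under VC its D/KO libraries held 4.40, 3.61 and 3.86 at day 0 and 2.22, 1.39 and 2.37 at day 4, and these ranges did not overlap. It fell by 0.99 ± 0.32 on the log2 scale (adjusted p = 0.00886, edgeR), a call that was lost without D/KO day 4 plus VC replicate 2 (adjusted p = 0.0641).

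Krt84, a type II hair keratin also known from the tongue, reached similar levels in both genotypes without VC. At day 2 it held 18.7, 19.2 and 26.6 normalised CPM in D/KO and 13.5, 19.98 and 18.1 in WT, and at day 4 18.1, 15.6 and 19.7 in D/KO and 15.1, 12.8 and 13.2 in WT. The ranges of the genotypes overlapped at day 2, and lay just apart at day 4. The starting levels differed, with 3 counts in the D/KO day 0 libraries against 0.497, 0.537 and 0.766 normalised CPM in WT, and the ratio of D/KO day 2 to day 0 was 365 (counting interval 125 to 1773). The change from day 0 was larger in D/KO by 3.49 ± 0.64 at day 2 and by 3.55 ± 0.64 at day 4 (adjusted p = 1.33e-04, edgeR). All 3 D/KO day 0 counts lay in replicate 3, and with single libraries left out these differences ran from 2.94 to 6.74 and from 3.00 to 6.80.

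With VC the Krt84 level was lower at day 4. It fell by 1.31 ± 0.20 on the log2 scale in WT (adjusted p = 4.09e-06, edgeR) and by 0.55 ± 0.19 in D/KO (adjusted p = 0.0207), and the D/KO call was lost with 3 of 6 libraries left out (adjusted p up to 0.0963). Krt83, another type II hair keratin, held 1.25, 1.93 and 0.701 normalised CPM in D/KO day 4 and 3 counts in all at day 4 plus VC, a ratio of 0.0407 (counting interval 0.00820 to 0.124). In WT it had no count at day 4 plus VC, at least 6.19-fold lower than at day 4. The other 22 hair keratins reached no group mean of 1 normalised CPM.

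Krt80 is a type II keratin found at desmosomes and in differentiating epithelia, and Krt90 a type II keratin of little known role. At D/KO day 4 plus VC they were the most abundant type II members beside Krt8. Krt80 held 4.90, 4.16 and 7.89 normalised CPM at D/KO day 0, 67.0, 70.8 and 70.6 at day 4, and 220, 221 and 184 at day 4 plus VC. WT libraries held 1.97, 2.19 and 1.61 at day 4 plus VC, and no WT library of the first table exceeded 2.37. It rose in D/KO by 3.62 ± 0.20 on the log2 scale at day 4 (adjusted p = 3.45e-17, edgeR). The change was larger in D/KO than in WT by 2.95 ± 0.38 at day 4 and by 5.25 ± 0.57 at day 4 plus VC (adjusted p = 9.33e-09, edgeR).

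Krt90 started from no count at day 0 in both genotypes and both arms. It held 9.71, 7.63 and 4.75 normalised CPM at D/KO day 4, and 114, 114 and 131 at day 4 plus VC, at least 570-fold above the floor. WT libraries held 1.22, 1.64 and 2.15 at day 4 plus VC, apart from D/KO by 6.15 ± 0.30 on the log2 scale. None of the 100-base words of Krt80 or Krt90 occurs elsewhere. The spans of both genes, and those of Krt8 and Krt19, overlap annotated genes on the opposite strand, and strandedness is not given in the sources used here. Krt222, a keratin-like gene, stayed at or below a mean of 1.29 in every group.

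**Figure D3:**
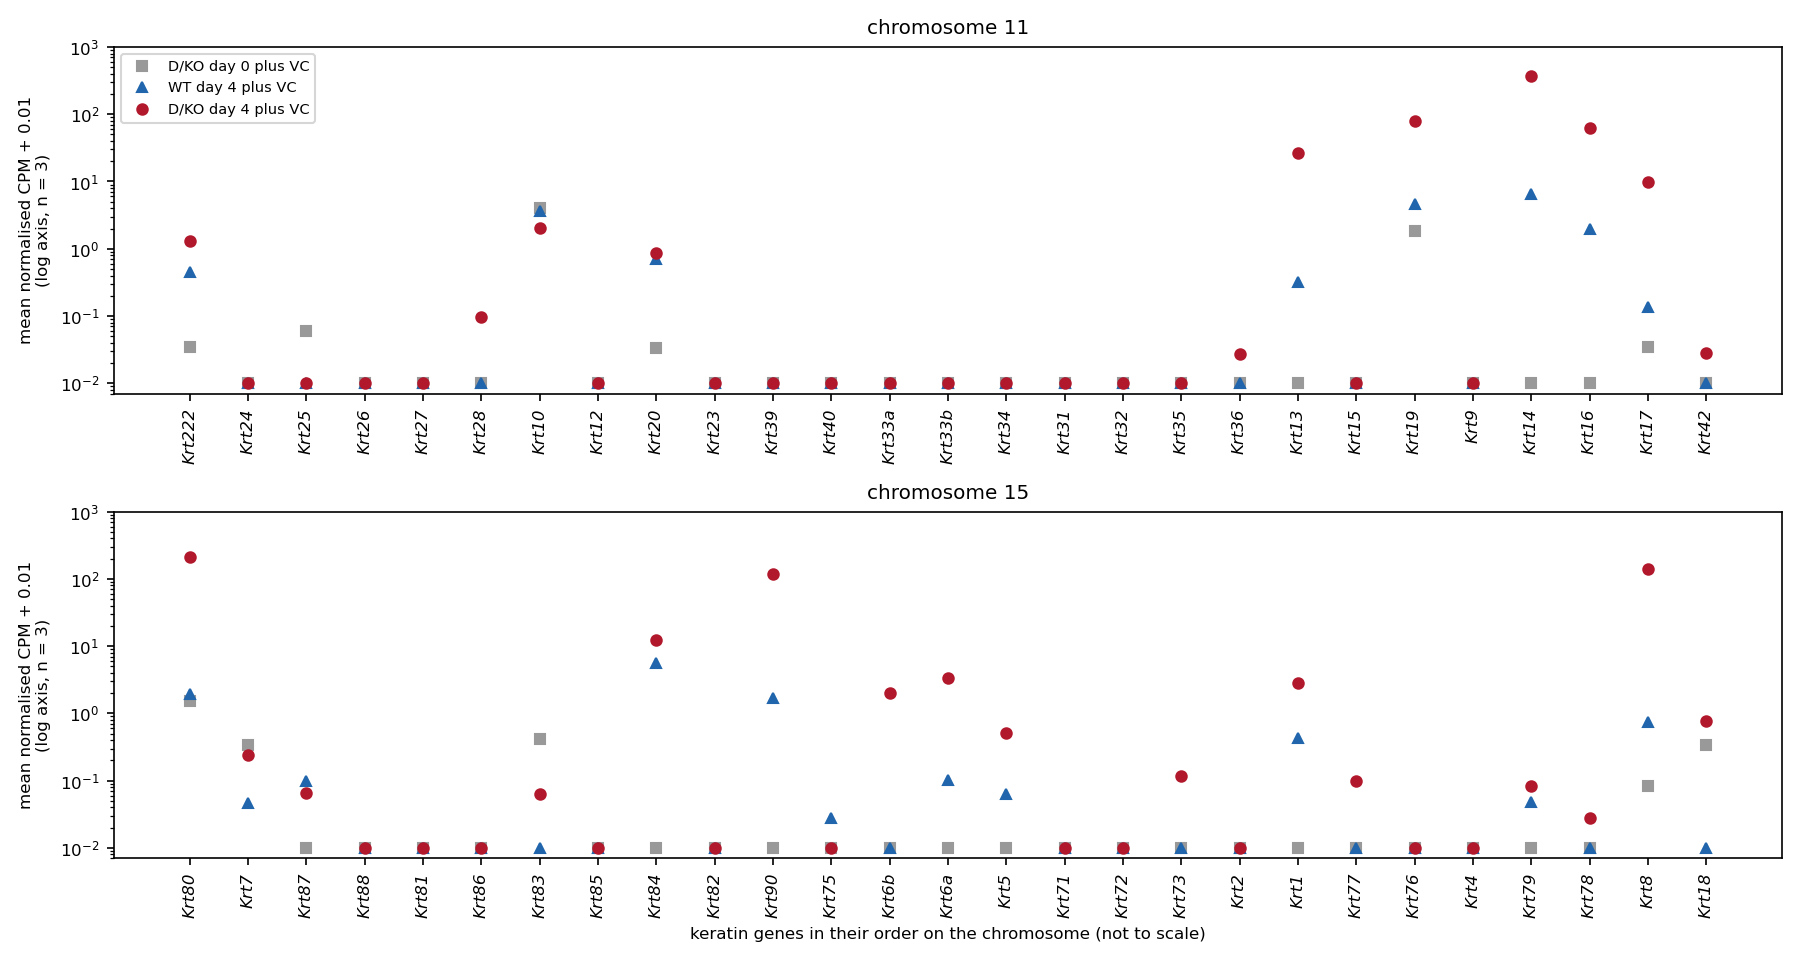
Mean normalised CPM plus 0.01 (y axis, log) of the keratins in gene order along chromosomes 11 and 15 (x axis, not to scale) in D/KO day 0 plus VC (grey), WT day 4 plus VC (blue) and D/KO day 4 plus VC (red). In D/KO day 4 plus VC 14 members reach 1 and 8 reach 10 normalised CPM, with members at 0 counts between them.

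The level difference between the genotypes was tested during reprogramming as well. At day 2, 9 members were higher and 2, Krt10 and Krt19, lower in D/KO (16.7% and 3.70% of 54) beside 42.4% of all genes called in either direction, and at day 2 plus VC 10 were higher and 2, Krt10 and Krt84, lower (18.5% and 3.70%) beside 39.2%. The Krt10 calls were lost with 2 and 3 of 6 libraries left out and that of Krt84 with 4 of 6 (adjusted p up to 0.0604, 0.123 and 0.168, edgeR). At day 4, 10 members were higher and 0 lower in D/KO (18.5% and 0% of 54) beside 51.0% of all genes called in either direction. With VC 14 were higher and 1, Krt10, lower (25.9% and 1.85%) beside 54.0%. The Krt10 call was lost with 3 of 6 libraries left out (adjusted p up to 0.118, edgeR). The change from day 0 differed for 1 member at day 2 (1.85% of 54, all genes 6.54%), 3 at day 4 (5.56%, all genes 14.3%), 3 at day 2 plus VC (0 to 5 with single libraries left out, all genes 13.9%) and 3 at day 4 plus VC (all genes 29.4%). DESeq2 called 2, 6, 7 and 8 in the same order. A member at or near 0 counts at day 0 gives no steady estimate of that difference: for Krt14, with no count at day 0 plus VC in D/KO and 1 in WT, at day 4 plus VC it was 7.79 ± 4.08 (adjusted p = 0.155, edgeR). The level comparison is therefore given beside it.

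In D/KO cells most keratins called for VC were lower with it at day 0 and higher with it at day 4. At day 0, D/KO cells with VC had 6 members lower and 1 higher (11.1% and 1.85% of 54) beside 26.1% of all genes called in either direction. The higher member was Krt83, and these 7 calls were 4 without D/KO day 0 plus VC replicate 1. The lower members were Krt80 and all 5 simple keratins. Krt19 fell by 1.96 ± 0.26 on the log2 scale (adjusted p = 2.69e-07, edgeR) from 9.60, 6.33 and 5.24 to 1.36, 2.41 and 1.68, and Krt80 fell by 1.90 ± 0.26. Krt8 went from 51 to 3 counts in all, a ratio of 0.0719 (counting interval 0.0144 to 0.222). The calls of Krt7, Krt18 and Krt20 were lost with 2, 3 and 4 of 6 libraries left out (adjusted p up to 0.128, 0.0860 and 0.192). The 5 endothelial markers also were all lower there, with summed levels of 215 to 256 against 585 to 709, and their part in the change was not tested. In WT cells 3 members were lower and none higher beside 29.4% of all genes, led by Krt19 (-2.30 ± 0.25, adjusted p = 4.36e-09, edgeR). The other 2 were Krt84, at a ratio of 0.0720, and Krt7, a call that was lost with 5 of 6 libraries left out (adjusted p up to 0.215).

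At day 4, 9 members were higher and 2 lower with VC in D/KO cells, beside 34.5% of all genes. The lower members were Krt83 and Krt84. On the log2 scale Krt90 rose by 4.02 ± 0.26, Krt8 by 3.96 ± 0.28, Krt14 by 3.09 ± 0.21 and Krt19 by 3.07 ± 0.20, the last with adjusted p = 3.59e-14 (edgeR). Krt16 did not pass (-0.21 ± 0.20, adjusted p = 0.448). VC was not tested at day 2, where the Krt16 libraries with VC lay below those without. In WT cells 2 were higher and 3 lower beside 22.4% of all genes. There Krt14 rose by 4.69 ± 0.43 (adjusted p = 4.79e-10, edgeR) while Krt19 fell by 1.44 ± 0.21 (adjusted p = 2.88e-06), so Krt19 moved in opposite directions in the 2 genotypes. Krt222 and Krt1 in D/KO and Krt1 in WT lost their calls with 6, 4 and 5 of 6 libraries left out (adjusted p up to 0.186, 0.158 and 0.155).

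Type I transcripts exceeded type II transcripts in D/KO cells at every time. Summed per kilobase of exon, type I keratins stood at 6.96 and type II at 2.06 normalised CPM at day 0, at 82.6 and 26.9 at day 4, at 93.8 and 9.89 at day 2 plus VC, and at 314 ± 47.4 and 159 ± 7.73 (SD, n = 3) at day 4 plus VC. WT day 4 plus VC cells held 9.95 and 3.64. Exon lengths are unions over transcripts, which lowers the per-kilobase level of genes with long union exons such as Krt7, Krt80 and Krt1.

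In 5 of the 6 textbook pairs the partners stood far apart in D/KO day 4 plus VC cells. The type II and type I partners stood at 70.9 and 0.536 normalised CPM per kilobase for Krt8 and Krt18, at 0.0331 and 43.1 for Krt7 and Krt19, at 1.37 and 39.3 for Krt6a and Krt16, and at 0 and 14.6 for Krt4 and Krt13. Krt1 and Krt10 stood close together, at 0.633 and 0.943, and their order turned without the division by length, since Krt1 held 2.79 and Krt10 1.99 normalised CPM. The abundant type II members there were Krt8, Krt80 and Krt90 and the abundant type I members Krt14, Krt19, Krt16 and Krt13.

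**Figure D4:**
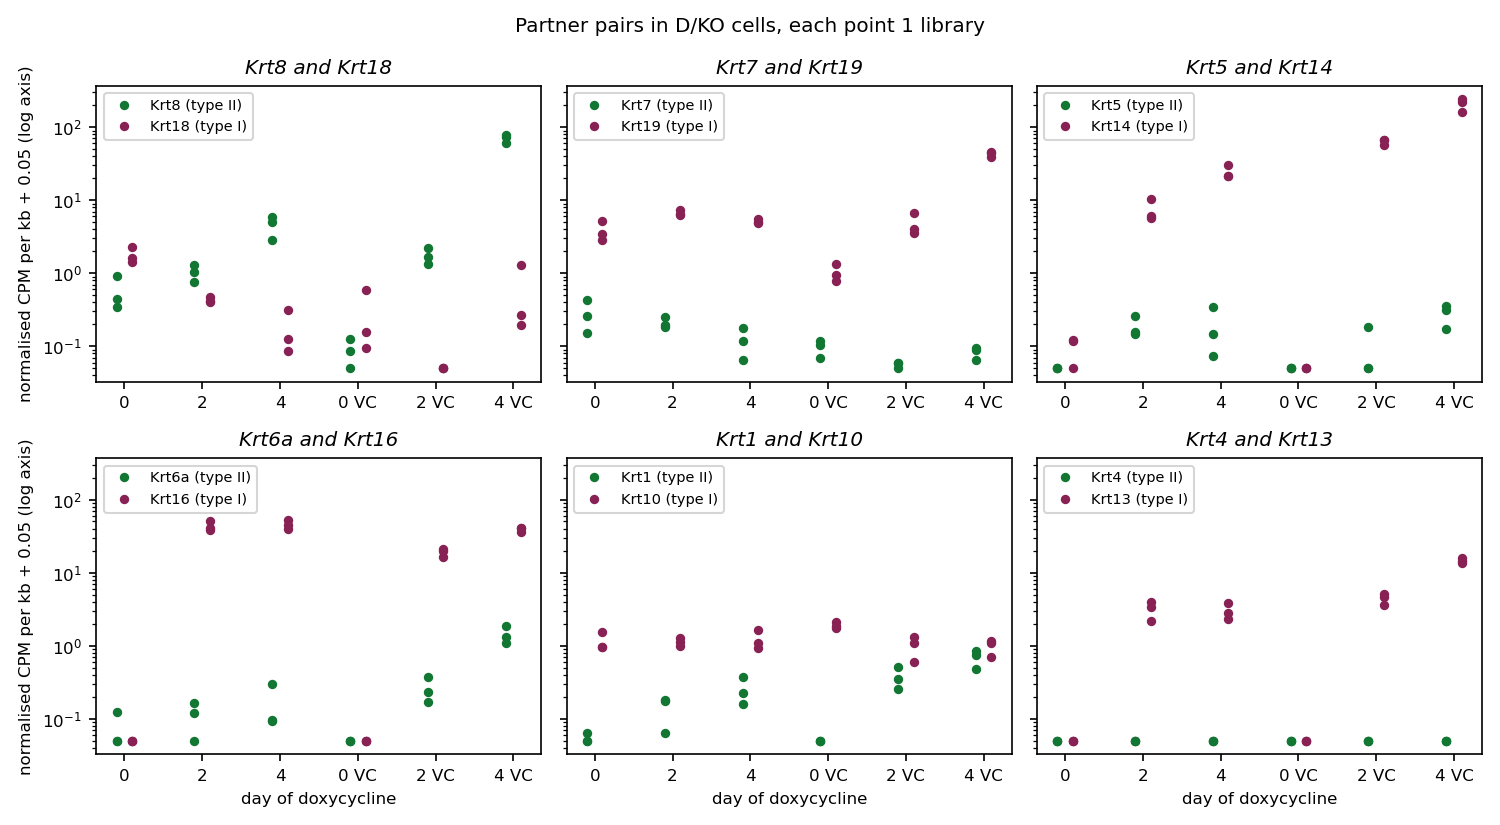
Normalised CPM per kilobase of exon plus 0.05 (y axis, log) of the type II and type I partner in 6 pairs in the D/KO libraries by day and VC (x axis). Each point is 1 library. Krt8 and Krt18 change order between day 0 and day 4 plus VC, where Krt8 has a mean of 70.9 and Krt18 of 0.536.

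Genes for proteins that tie keratin filaments to desmosomes and other structures were counted in the same contrasts. Of 13 linker genes 8 were higher and 1 lower at D/KO day 4 plus VC, beside 27.9% and 26.2% of all genes, with a median log2 fold change of 0.96 over 11 tested against 0.01 over all genes. At WT day 4 plus VC 10 were higher and 1 lower, beside 22.7% and 22.0%. Pkp1, a desmosomal plaque protein, stood at 179 normalised CPM against 0.0918 (10.81 ± 0.38, edgeR), the cornified envelope linker Evpl at 28.0 against 0.142 (7.58 ± 0.40), desmoplakin Dsp at 95.3 against 5.30 (4.16 ± 0.21, adjusted p = 1.08e-18) and Eppk1, which binds keratin networks, rose by 3.72 ± 0.58. Among 12 genes of other intermediate filaments 3 were higher (Nefl, Nes and Bfsp1) and 1, the muscle filament Des, lower, beside the same 27.9% and 26.2% of all genes, with a median of 0.54 over 8 tested. The vimentin gene Vim, the filament of fibroblasts, stood at 9107 against 8599 normalised CPM (0.08 ± 0.13, adjusted p = 0.626, edgeR), so the keratin sum stayed far below it.

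Keratinocyte markers other than keratins moved too. Of 14 markers 8 were higher and none lower at D/KO day 4 plus VC, beside 27.9% and 26.2% of all genes, with a summed level of 1659 to 2043 normalised CPM against 35.4 to 41.1 at day 0 plus VC. Itgb4, which anchors basal cells to the basement membrane, made up 1442 of it, and Itga6, its partner, 220. Cdh1 stood at 44.3, Perp at 130, Dsg3 at 0.736 and Epcam at 0.566, and Dsg1a had no count. In WT day 4 plus VC 7 of 14 were higher, beside 22.7% of all genes, and the sum was 388 to 421, with Itgb4 at 321, Cdh1 at 0.165 and 4 markers at 0 counts. Fibroblast markers were lower for 9 of 10 at D/KO day 4 plus VC, all but Thy1, beside 26.2% of all genes, and their sum was 28864 to 31337 there against 186157 to 255248 at day 0 plus VC. Whether cells of another type contributed to the keratins was not tested.

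In the inhibitor table Krt14, Krt16 and Krt90 were absent or nearly so. Krt14 had 1 count, and Krt16 and Krt90 none, in all 24 libraries. Krt19 led the keratin sum in all 8 groups, with 38.9% to 71.9% of it, and the mean sum of D/KO cells was 19.6 normalised CPM in controls, 27.2 with Repsox, 25.2 with Vactosertib, 19.8 with DMH-1 and 26.5 with A83-01. Repsox and A83-01 inhibit ALK5, a TGFb receptor, DMH-1 inhibits ALK2, a BMP receptor, and Vactosertib is described as an inhibitor of ALK5 and also of ALK2. The 4 inhibitors were compared with the same 3 control libraries, so their results share them.

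Krt18 was higher with Repsox. It held 0.766, 0.244 and 0.413 normalised CPM in D/KO control, 2.74, 3.58 and 2.62 with Repsox, 2.14, 1.36 and 0.887 with Vactosertib, 0.470, 0.0957 and 0.398 with DMH-1 and 2.27, 1.49 and 0.739 with A83-01. The Repsox and Vactosertib libraries lay above all controls, and 1 A83-01 library lay below the highest control. Krt18 rose by 2.61 ± 0.58 on the log2 scale with Repsox (adjusted p = 0.00243, edgeR), which passed with each of the 6 libraries left out in turn. With A83-01 the log2 fold change was 1.62 ± 0.59 (adjusted p = 0.0461), lost with 4 of 6 libraries left out (adjusted p up to 0.212). With Vactosertib it was 1.59 ± 0.60 (adjusted p = 0.0725) and with DMH-1 -0.61 ± 0.67 (adjusted p = 0.727). Krt8, its partner, stayed at or below a mean of 0.205 in every group of this table.

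Krt20 was lower with A83-01 and Repsox. It held 0.979, 0.439 and 0.767 in control, 0.152, 0.119 and 0.103 with Repsox, and 0.0769, 0 and 0.148 with A83-01, with no overlap. It fell by 3.19 ± 0.75 with A83-01 (adjusted p = 0.00263, edgeR) and by 2.51 ± 0.69 with Repsox (adjusted p = 0.0116), and the latter call was lost without D/KO control replicate 1 (adjusted p = 0.0634). With Vactosertib it held 0.190, 0.491 and 0.104, which overlapped the controls.

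Most other calls depended on single libraries. Repsox had 2 members higher and 1 lower, Vactosertib 1 higher, DMH-1 2 lower and A83-01 3 higher and 2 lower, beside 20.7%, 18.1%, 7.25% and 27.5% of the 15652 genes tested called in either direction. Of all 54 members these are 5.56%, 1.85%, 3.70% and 9.26%. With single libraries left out the calls numbered 1 to 4, 0, 1 and 1 to 3, and Repsox had 1 without D/KO control replicate 1. Krt84 rose by 1.94 ± 0.60 with Repsox and by 1.97 ± 0.61 with Vactosertib from 0.213, 0.293 and 0.236 in control, and these calls were lost with 5 and 6 of 6 libraries left out (adjusted p up to 0.103 and 0.111, edgeR). The calls of Krt19 and Krt83, higher, and Krt80, lower, with A83-01 were lost with 5, 4 and 6 of 6 (adjusted p up to 0.149, 0.130 and 0.0769), and that of Krt80, lower with DMH-1, with 6 of 6 (adjusted p up to 0.187). Krt87 had no count with DMH-1 against 12 in control, at least 1.80-fold lower. The median log2 fold change of the 10 tested members was 0.28, -0.20, -0.31 and -0.25 for Repsox, Vactosertib, DMH-1 and A83-01, against medians within 0.02 of 0 over all genes. With Repsox it was -0.08 with floors.

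**Figure D5:**
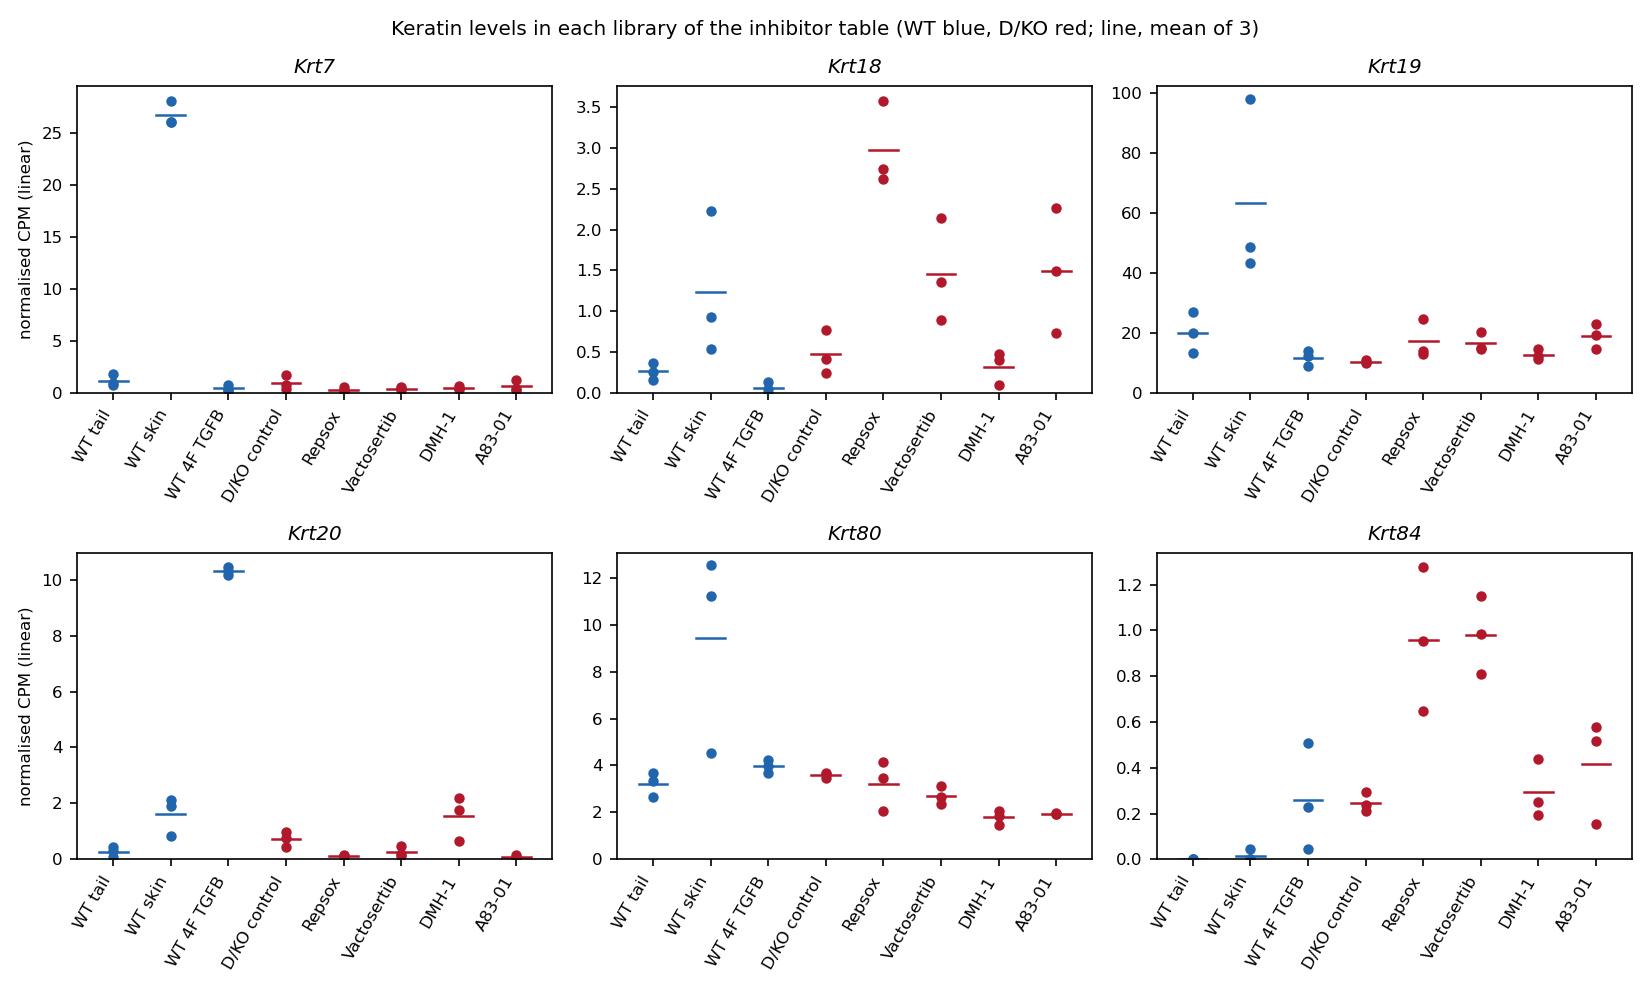
Normalised CPM (y axis, linear) of 6 keratins in each library of the 8 groups of the inhibitor table (x axis), with a line at the mean of 3 libraries. Krt18 stands at 2.74, 3.58 and 2.62 with Repsox above controls of 0.766, 0.244 and 0.413, and Krt7 stands apart in WT skin.

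Compounds were compared at equal dose and time in 2 pairs. The p-values given for keratins are adjusted over the genes of both pairs, and the shares of all genes called rest on p-values adjusted within each pair. At 1 µM the ALK5 inhibitor A83-01 and the ALK2 inhibitor DMH-1 differed for 4 members (7.41% of 54) beside 20.5% of all genes. On the log2 scale the difference of A83-01 from DMH-1 was -4.23 ± 0.68 for Krt20 (95% interval -5.65 to -2.80, adjusted p = 2.03e-04, edgeR), and DMH-1 libraries held 0.658, 1.75 and 2.19. Krt83 was higher with A83-01 by 3.91 ± 0.80 (2.23 to 5.60, adjusted p = 0.00289), but it had 4, 0 and 0 counts with DMH-1, all in replicate 1, and the difference ran from 3.32 to 7.22 with single libraries left out. Krt87, without a count under DMH-1, was higher by at least 1.23-fold. Krt18 was higher by 2.23 ± 0.60 (0.97 to 3.48, adjusted p = 0.0213), a call that was lost without DMH-1 replicate 2 or A83-01 replicate 1 (within-pair adjusted p up to 0.0660). For Krt19 the difference was 0.59 (-0.04 to 1.22) and for Krt80 0.11 (-0.52 to 0.75), and neither passed.

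At 0.1 µM no keratin and 0% of all genes differed between Repsox and Vactosertib in edgeR. None of the 10 members had an unadjusted p under 0.05, and DESeq2 called 0. The difference was 1.02 (95% interval -0.05 to 2.10) for Krt18, 0.04 (-0.59 to 0.67) for Krt19, -1.12 (-2.75 to 0.50) for Krt20 and -0.02 (-1.11 to 1.06) for Krt84. The intervals of 7 of the 10 members (Krt7, Krt17, Krt18, Krt20, Krt83, Krt84 and Krt87) reach beyond a difference of 1 on the log2 scale.

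Linker genes were also counted with the inhibitors, and 11 of the 13 were tested. With A83-01 2 of 13 were higher and 1 lower, beside 27.5% of all genes called in either direction, with Ppl, the periplakin gene, at 24.5 against 1.11 normalised CPM (4.46 ± 0.27, adjusted p = 1.25e-10, edgeR), Dsp at 10.8 against 2.07 (2.39 ± 0.42) and Pkp2 lower by 0.91 ± 0.19. With Repsox and Vactosertib only Ppl and Dsp were called, both higher, beside 20.7% and 18.1% of all genes called in either direction. With DMH-1 only Ppl was called, higher, beside 7.25%. Of other filament genes Prph, Synm and Bfsp1 were higher and Des lower with A83-01, and Vim did not pass (0.05 ± 0.15). Endothelial markers summed to 141 to 181 normalised CPM with A83-01 against 290 to 331 in control, with 3 of 5 lower and Tek higher, and to 229 to 374 with Repsox. Their part in the keratin levels was not tested.

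The untreated lines differed in their simple keratins. Skin fibroblasts had 6 members higher and 1 lower than tail tip fibroblasts of the same genotype, sex and age, beside 34.2% of all genes called in either direction. Krt7 held 26.1, 26.0 and 28.1 normalised CPM in skin and 0.745, 0.968 and 1.77 in tail tip, higher by 4.53 ± 0.49 on the log2 scale (adjusted p = 3.12e-07, edgeR). Krt19 held 97.8, 43.1 and 48.7 in skin against 19.9, 13.3 and 27.0 (1.66 ± 0.30). Krt20, Krt80 and Krt87 were higher in skin by 2.54 ± 0.57, 1.54 ± 0.28 and 3.10 ± 0.62. The Krt18 and Krt10 calls were lost without WT skin replicate 1 (adjusted p = 0.0794) and WT skin replicate 2 (adjusted p = 0.0522). Endothelial markers were higher for 4 of 5 in skin and lower for 1, Tek. Their sums were 167 to 240 in skin against 73.3 to 91.1, and their part was not tested.

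Untreated D/KO and WT tail tip cells of this table differed for 2 members beside 34.6% of all genes. Krt19 was lower in D/KO (10.9, 10.0 and 10.3) by 0.95 ± 0.31 (adjusted p = 0.0204, edgeR), a call lost with 3 of 6 libraries left out (adjusted p up to 0.134). Krt84 was at least 2.11-fold above the floor of WT tail tip. Krt18, which set the day 0 lines of the first table apart, held 0.261, 0.155 and 0.371 in WT tail tip and did not pass here (0.88 ± 0.69, adjusted p = 0.355, edgeR), and Krt8 had too few counts for the test. Of the endothelial markers 4 of 5 were higher and 1 lower in D/KO, with sums of 290 to 331 against 73.3 to 91.1 normalised CPM. Their part in the keratin levels was not tested. Genotype goes with age in this pair, and levels of the 2 tables, which were normalised separately, are only set side by side.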

How the data were processed

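Total RNA was sequenced on an Illumina instrument in paired-end mode. The submitters' processing notes name FastQC, Trim Galore, HISAT2, featureCounts of Subread and the GRCm39 assembly, and versions, strandedness and the treatment of reads with several positions are not given in the sources used here. The authors deposited raw counts per Ensembl gene in 2 tables of 36 and 24 libraries, which were used as deposited and normalised separately. Symbols came from GENCODE M39, which held 56236 of the 56980 identifiers, and 0.0186% to 0.0260% of counts fell on identifiers not found. Groups were taken from the labels, with replicate numbers in accession order.

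Genes were kept with filterByExpr (minimum count 10, minimum total 15), scaled by TMM and tested with edgeR 4.0.16 (limma 3.58.1, R 4.3.3) by quasi-likelihood, each table in a fit of its own where every group had a coefficient. Standard errors are the log2 fold change divided by the root of F, and the Benjamini-Hochberg adjustment ran over all genes of a contrast. DESeq2 1.42.0, DESeq2 size factors, no filter, fits of only the groups compared, 18 libraries of the inhibitor table, day 0 without VC as baseline, a size threshold of 1 on the log2 scale and leaving out each library were tried as alternatives. The scripts were tested on simulated data. Contrasts of D/KO and WT levels were added after seeing the data. Members, classes and lists were chosen with earlier results of these data known. Any member could be named, values per library were given first for those with a group mean of at least 10 normalised CPM, and at most 4 genes of each other filament list were named by the size of their change. Krt18, Krt5, Krt7, Krt6a, Krt6b, Krt17, Krt1, Krt10, Krt20 and Krt83 were added where a statement turned on them. Sequences were read from the GRCm39 genome at the gene starts of the deposited tables.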

Additional observations from a re-analysis of the deposited data

Results flagged for a closer look

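For several keratins the change from day 0 differed between D/KO and WT by the interaction test of edgeR at an adjusted p under 0.05. Krt84 changed more in D/KO by 3.49 on the log2 scale at day 2 and by 3.55 at day 4, with 2.94 to 6.74 and 3.00 to 6.80 when single libraries were left out and 3 counts in all at D/KO day 0. Krt80 changed more in D/KO by 2.95 at day 4, by 1.64 at day 2 plus VC and by 5.25 at day 4 plus VC, and Krt19 by 4.17 at day 4 plus VC. The Krt80 call at day 2 plus VC was lost with 4 of 12 libraries left out in turn (adjusted p up to 0.148). Krt222 differed by 5.76 at day 4, lost with 8 of 12 (adjusted p up to 0.364), and its D/KO day 0 libraries had no count. Krt10 differed by -1.34 at day 2 plus VC and by -1.25 at day 4 plus VC, lost with 8 and 6 of 12 (adjusted p up to 0.131 and 0.0968). Krt18 differed by -9.15 at day 2 plus VC, lost with 8 of 12 (adjusted p up to 1.00), and this value depends on groups at 0 counts.

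The 4FJ OCT4-GFP cells under the label TGFB have no untreated partner in their table and entered no comparison. They held 10.3, 10.2 and 10.4 normalised CPM of Krt20 (mean 10.3) and 1.80, 0.691 and 1.83 of Krt17 (mean 1.44), above every untreated library of that table, where Krt20 reached at most 2.14 and Krt17 at most 1 count. Cells of the same labelled genotype and age at WT day 0 of the first table, which was normalised separately, held 0.331, 0.107 and 0.408 of Krt20 and no count of Krt17. The difference was not tested.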

How the results depend on the processing

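Direction held for nearly all calls. A member that an alternative's filter removed gave no value there and is not counted next as a lost call. Of 213 called log2 fold changes of keratins, 66 lost the call under at least 1 alternative that still tested the member. Of their 2411 values under alternatives 2157 kept direction and call, 251 kept direction without the call (205 with a library left out), and 3 reversed, all with day 0 without VC as baseline: Krt83 at D/KO day 4 plus VC (3.09), and Krt19 at WT day 2 plus VC (-1.09) and WT day 4 plus VC (-0.998). Counts near the threshold moved. With only the groups compared they were 9 for D/KO day 4, 3 for WT day 2, 5 for Vactosertib, 1 for DMH-1, 4 and 1 for VC at day 0 in D/KO and WT, and 4 and 1 for the level at day 0 without and with VC. Without a filter they were 5 for Repsox, 0 for Vactosertib and 1 for DMH-1, and with 18 libraries 2 for Vactosertib and 1 for DMH-1. DESeq2 called 2 for Vactosertib, 2 and 6 for the change at day 2 and day 4 without VC, 7 and 8 with VC, and 4 for control D/KO against WT tail tip. Asking also for a log2 fold change of 1 or more in size, A83-01 had 3 and control D/KO against WT tail tip 1. The cause of these shifts was not tested.

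When single libraries were left out, the number of higher members in D/KO ranged from 10 to 12 at day 2 and 13 to 14 at day 4 without VC and was 13 to 13 and 15 to 15 with it. In the same order it ranged from 5 (without WT day 2 replicate 2) to 9, 5 to 7, 8 to 9 and 10 to 11 in WT. Calls ranged from 1 (without D/KO control replicate 1) to 4 for Repsox, 0 to 0 for Vactosertib, 1 to 1 for DMH-1 and 1 to 3 for A83-01, against 3, 1, 2 and 5 with all libraries. For the change they ranged from 1 to 2, 2 to 3, 0 to 5 and 2 to 3. For VC at day 0 they ranged from 4 (without D/KO day 0 plus VC replicate 1) to 7 in D/KO and 2 to 3 in WT, and at day 4 from 8 to 10 and 4 to 5. For the level they ranged from 4 (without D/KO day 0 replicate 3) to 6 at day 0, 1 to 2 at day 0 plus VC, 9 to 11 at day 2, 10 to 12 at day 2 plus VC, 9 to 10 at day 4 and 13 to 15 at day 4 plus VC, for control D/KO against WT tail tip from 1 to 2, for skin against tail tip 6 to 7 and for A83-01 against DMH-1 3 to 4. No paired analysis was possible because the labels number every library separately and the replicate numbers only follow accession order. The scaling moved the median of all genes by 0.05 at most. A keratin at 0 counts in a library can be seen only above about 3 counts there.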
